A study of Homo sapiens with 6 samples.

Results

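The TEAD and VGLL family genes were taken as 7 genes, TEAD1, TEAD2, TEAD3, TEAD4, VGLL2, VGLL3 and VGLL4, of 20033 protein-coding genes placed on the chromosomes by the RefSeq gene table. Each gene was described by the ATAC-seq peaks that overlapped its span on GRCh38 or the 10 kb on either side, here called its window. ATAC-seq uses a transposase to cut accessible DNA, and a peak is an interval in which the density of fragments stood above the local background. The cells were NCI-H1703, an established human line from lung squamous cell carcinoma. In 3 libraries, titled ASO, a long non-coding RNA, DLGAP1-AS2, had been silenced. The other 3, titled NC, were controls of the same line, so every library comes from this 1 line. Values of a group are given below in the order of its replicates 1, 2 and 3. The title of the series places DLGAP1-AS2 in phosphatidic acid synthesis and YAP signalling. The labels give no time after silencing and do not say that the libraries came from separate cultures, so a p-value here measures only the spread between these samples, which may be technical.

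TEAD proteins are transcription factors that bind DNA but activate little on their own. They recruit the co-activators YAP and TAZ, which enter the nucleus when the kinases of the Hippo pathway are inactive, and together they drive genes of growth and survival. VGLL proteins, named after Drosophila vestigial, have no DNA-binding domain and bind TEADs at a surface that overlaps the YAP-binding one. VGLL4 is known as an antagonist of YAP on TEADs and VGLL2 for its role in skeletal muscle, and VGLL3 is another TEAD cofactor.

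The sequences before the gene starts show what kind of DNA lies there. Most regions described below, 132 of 154, lay at no start, and their sequence is not shown. The promoter table of RefSeq (GRCh38.p14) held 10 starts of 5 members (2 of TEAD2, 1 each of TEAD3, VGLL2 and VGLL3, and 5 of VGLL4). TEAD1 and TEAD4 were described by both ends of their spans instead. The 250 bases before 6 of these starts are printed 5′ to 3′ on the gene's own strand, chosen because a peak lay over them in 5 or 6 libraries, or, for the last, because a peak overlapped it in 1 library, as a contrast within the same gene. Capitals mark a GC box (GGGCGG, or its complement CCGCCC), the motif that Sp1-family factors bind.
TEAD3, chr6:35497080-35497329, minus strand: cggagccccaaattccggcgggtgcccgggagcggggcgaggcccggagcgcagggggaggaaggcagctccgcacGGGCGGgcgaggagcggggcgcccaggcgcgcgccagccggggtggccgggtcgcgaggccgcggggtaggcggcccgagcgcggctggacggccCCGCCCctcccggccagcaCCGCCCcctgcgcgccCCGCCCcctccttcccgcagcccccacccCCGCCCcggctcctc
VGLL2, chr6:117265308-117265557, plus strand: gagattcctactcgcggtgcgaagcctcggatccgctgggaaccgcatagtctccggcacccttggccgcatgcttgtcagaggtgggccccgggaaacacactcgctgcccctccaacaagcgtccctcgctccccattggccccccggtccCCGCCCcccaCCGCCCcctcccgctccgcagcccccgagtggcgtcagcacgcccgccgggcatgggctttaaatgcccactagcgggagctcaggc
VGLL3, chr3:86991150-86991399, minus strand: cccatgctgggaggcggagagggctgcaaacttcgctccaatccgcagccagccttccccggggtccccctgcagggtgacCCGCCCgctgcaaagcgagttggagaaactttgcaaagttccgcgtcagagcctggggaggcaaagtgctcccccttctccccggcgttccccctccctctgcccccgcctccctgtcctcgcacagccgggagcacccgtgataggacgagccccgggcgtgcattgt
VGLL4, start at 11720539, chr3:11720540-11720789, minus strand: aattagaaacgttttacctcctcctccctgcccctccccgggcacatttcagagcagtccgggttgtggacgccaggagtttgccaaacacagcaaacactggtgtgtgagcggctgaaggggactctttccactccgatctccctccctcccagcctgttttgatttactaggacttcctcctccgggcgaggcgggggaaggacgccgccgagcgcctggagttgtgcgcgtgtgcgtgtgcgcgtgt
VGLL4, start at 11643915, chr3:11643916-11644165, minus strand: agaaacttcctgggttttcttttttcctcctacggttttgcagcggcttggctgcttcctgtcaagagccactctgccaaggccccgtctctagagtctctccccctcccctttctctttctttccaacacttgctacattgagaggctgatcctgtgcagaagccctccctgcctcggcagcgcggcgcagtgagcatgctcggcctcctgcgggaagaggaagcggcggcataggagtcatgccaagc
VGLL4, start at 11604581, chr3:11604582-11604831, minus strand: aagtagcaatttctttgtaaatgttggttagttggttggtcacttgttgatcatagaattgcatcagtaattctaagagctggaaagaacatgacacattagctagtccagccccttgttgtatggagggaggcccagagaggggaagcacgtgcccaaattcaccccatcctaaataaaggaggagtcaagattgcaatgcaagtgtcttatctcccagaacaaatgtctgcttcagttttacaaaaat
A GC box stood in 7 of the 10 member sequences, against 42.6% of all 35116 sequences of that length in the table. TEAD3 had 5 GC boxes, 37 CpG dinucleotides and a GC content of 84.0%, higher than 99.3% of all sequences, whose median was 58.0%. VGLL2 had a GC content of 70.0% with 2 boxes and VGLL3 67.6% with 1 box. The VGLL4 starts with a peak in all 6 libraries had 60.4% and 58.0% and no GC box, and the VGLL4 start at 11604581 had 41.6%, 1 CpG and no box. The sequences not printed went the other way. The VGLL4 start at 11568798 had 61.6%, 12 CpG and 1 box, with a peak over it in 0 libraries. The VGLL4 start at 11582356 had 49.2% and 1 box, also with 0. The TEAD2 starts had 67.6% and 60.0% with 1 box each, and a peak in 1 and 0 libraries. GC content and boxes thus did not sort these starts by their peaks. The letters GGAATG, which TEADs bind, were in 0 of the 10 sequences on either strand and in 11.9% of all sequences. The AP-1 letters TGANTCA were also in 0 of the 10, and in 6.57% of all. No match to one of the 3 motifs contains a match to another, though matches may share bases, and the absence of letters from these windows says nothing of the factors.

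Facts of the libraries that touch the results come first. The lists held 162115, 167966 and 121406 peaks in the silenced libraries, and 170882, 91346 and 165674 in the controls. Read depth is unknown, and a stand-in for it, the lowest background coverage implied by a list, was between 0.369 and 0.464 in 5 libraries and 0.237 in silenced replicate 3. The list of control replicate 2 held no height under 3 and had a median height of 8, against 3 or 4 in the others. Of the fixed markers, a peak within 1 kb of the start was called in all 6 libraries for 4 of 4 mesenchymal genes, 2 of 4 epithelial genes and 1 of 5 squamous genes (SOX2). The squamous keratins KRT5 and KRT6A had none in any library and TP63 had one in 1 library, so the defining squamous markers were largely without a called start in a line labelled squamous. None of 3 haematopoietic and none of 2 hepatocyte genes had a start peak in all 6.

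The 7 windows held 59, 71 and 44 peaks in the silenced libraries and 72, 54 and 66 in the controls. Merging the peaks of all libraries at an overlap of at least 1 bp gave 154 regions in the windows, 132 of them touching a span and 22 in a flank only. Of these, 85 (55.2%) were called in 1 library, against 74.1% of the 507440 regions of the genome, and 17 (11.0%) in all 6, against 7.35%. The 17 shared regions had a median width of 659 bp and 7 of them lay within 1 kb of a start or span end of a member. Another lay only at the start of a gene outside the family, RPL10A, and 9 at no start in the tables. Many regions rested on weak calls. Peaks at a false discovery rate under 0.05 merged to 92 regions in the windows, and those at a rate of at most 1e-05 to 32. The map of the windows, drawn from all deposited peaks, shows few regions shared by all libraries and many called once.

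**Figure D1:**
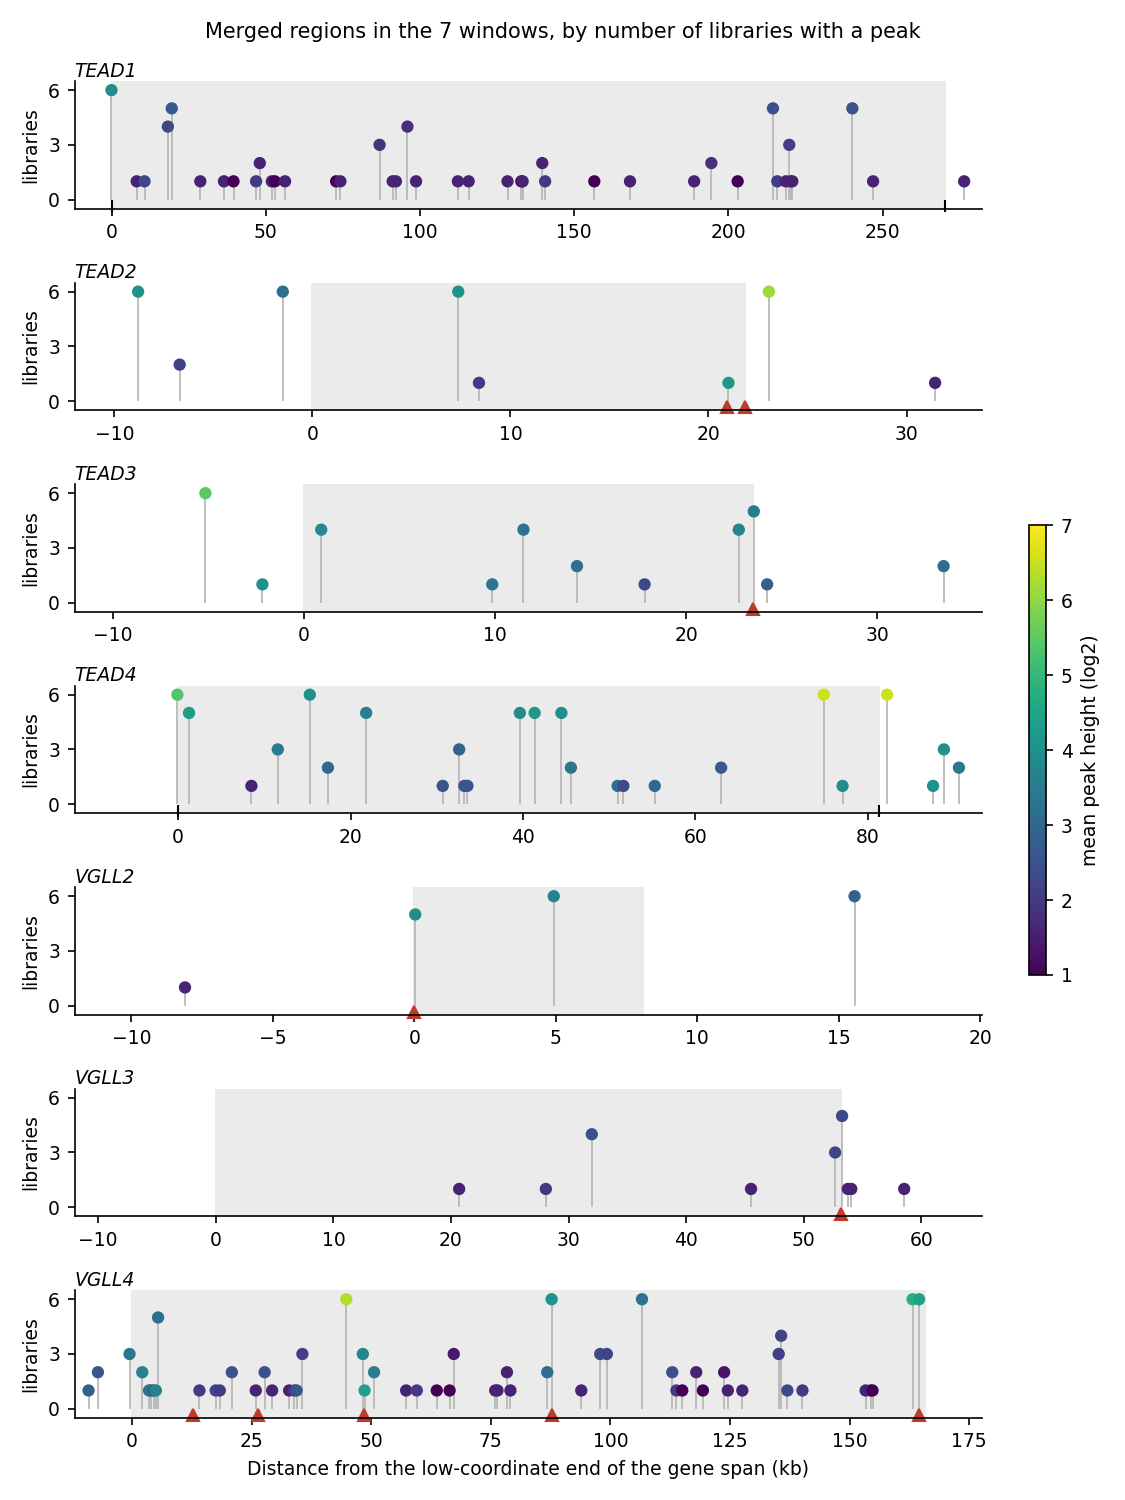
Merged regions in the window of each gene. The x axis is the distance in kb from the low-coordinate end of the gene span (grey), the y axis the number of libraries with a peak (of 6), and the colour the log2 of the mean peak height. Red triangles are starts from the promoter table and black ticks the span ends used for TEAD1 and TEAD4. TEAD1 has 1 region in all 6 libraries, at its low-coordinate end, and VGLL3 has none.

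Peak density set the windows apart from each other. With 10 kb of flank on either side, the windows measure 28.1 kb for VGLL2, 41.8 kb for TEAD2 and 43.5 kb for TEAD3, but 290 kb for TEAD1. Flanks, which hold parts of neighbouring genes, thus make up more of the short windows. TEAD4 held 13.3 ± 2.56 peaks per 100 kb of window (SD over 6 libraries), TEAD3 12.6 ± 3.49, VGLL2 11.9 ± 3.68, TEAD2 11.6 ± 2.35 and VGLL4 10.2 ± 1.63. Neighbours in this order differed by less than their SD, and TEAD4 was denser than VGLL4 in 5 of 6 libraries. VGLL3 with 4.10 ± 2.87 and TEAD1 with 4.08 ± 1.52 came last, below the median of 8.03 over all protein-coding windows (quartiles 5.35 and 10.9). Of all protein-coding windows, 86.8% had a lower density than TEAD4 and 16.5% a lower density than TEAD1. The local background behind the peaks, relative to the lowest of each library, also differed. It averaged 7.12 in the TEAD3 window and 6.49 in the TEAD4 window, and 1.08 in those of TEAD1 and VGLL3, against a median of 2.16 over all windows. A fold enrichment is taken over that background, so a tall peak can have a modest fold in the TEAD3 and TEAD4 windows.

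TEAD1 (chromosome 11, 12674421 to 12944737) was open at 1 end of a long span. The region at its low-coordinate end, 12673958 to 12674747, reached heights of 18, 12 and 10 in the silenced libraries and 23, 17 and 15 in the controls. Silenced replicate 1 lay within the control values, so the groups overlapped. The height is the authors' pileup of each library's strongest peak there, and it follows depth. The rank of the fold enrichment among the regions called in all 6 lists, turned into a normal score, was therefore used for the comparison. The score differed by -0.20 between silenced and control (95% interval -0.77 to 0.38, limma). No library had a peak within 1 kb of the high-coordinate end. Of the 41 regions in the window, 30 were called in 1 library, and the next most shared, 12693499 to 12694298, 12888633 to 12889125 and 12914340 to 12914890, were called in 5 libraries each with heights of 4 to 9.

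TEAD2 (chromosome 19, 49340595 to 49362416) had no shared peak over a start of its own. At the start at 49361517 a peak was called in control replicate 3 only, with a height of 18. The region counted for its other start, at 49362416, was 49363216 to 49364080, with the strongest peak of each library beginning 800 to 947 bp away, and it covered the start of the neighbouring gene DKKL1 at 49363877. Its heights were 74, 89 and 40 in silenced and 73, 71 and 67 in control libraries, with silenced replicate 3 lowest and silenced replicate 2 highest. The score differed by 0.08 (-0.33 to 0.48, limma). Within the gene body, 49347734 to 49348196 had heights of 18, 13 and 12 in silenced and 16, 26 and 14 in control libraries, which overlapped, and a score difference of -0.02. The other 2 regions of the window called in all 6 libraries lay on the far side, toward SLC6A16 and CD37. One of them, 49338818 to 49339387, had heights of 4, 6 and 10 in silenced and 12, 15 and 7 in control libraries. Silenced replicate 3 lay above control replicate 3 there, and the score difference of -0.54 (-1.54 to 0.46) had the smallest p of the windows among lower scores (0.269, limma, unadjusted). This value rested on single libraries: it was -1.09 (unadjusted p 0.025, adjusted 0.962, limma) without silenced replicate 3 and -0.15 without silenced replicate 1.

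TEAD3 (chromosome 6, 35473597 to 35497079) carried weak peaks at the GC-rich start printed above. The region over the start, 35496686 to 35497573, had no peak in silenced replicate 3. Its heights were 9 and 9 in the other silenced libraries and 10, 17 and 11 in the controls. With no peak in 1 library, this region could not be compared by rank. The fold enrichments were 2.78 to 4.43 over a high local background. In silenced replicate 3 the peak within 1 kb was a separate one, 35497667 to 35497984, with a height of 7. A second region, 35496032 to 35496655, was called in replicates 1 and 2 of each group, with 9 and 13 in the silenced and 16 and 14 in the control libraries. The tallest region of the window, 35467943 to 35468931, lay over the start of RPL10A, a ribosomal protein gene, and is no start of TEAD3. Its heights were 49, 57 and 20 in silenced and 38, 45 and 60 in control libraries, which overlapped, with a score difference of 0.17 (-0.40 to 0.73, limma).

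TEAD4 (chromosome 12, 2959397 to 3040676) had the strongest peaks of the TEADs. The region of its body, 3034043 to 3034537, had its middle 6.39 kb inside the high-coordinate end, with heights of 80, 110 and 71 in silenced and 98, 110 and 86 in control libraries. The region just past that end, 3041302 to 3041960, had 77, 116 and 67 in silenced and 98, 116 and 89 in control libraries. In both regions the first and the third silenced replicate lay below all controls and silenced replicate 2 equalled control replicate 2, the highest control. Ranked by fold enrichment within each list, they stood in the top 1.22% to 5.99% and the top 3.65% to 7.65% of shared regions, and the scores differed by 0.09 (-0.36 to 0.53) and 0.02 (-0.38 to 0.42, limma). The low-coordinate end was covered by a broad region of 2040 bp, 2958293 to 2960332, which also holds the start of the lncRNA LOC124902859 at 2960048. Its heights of 37, 42 and 20 in silenced libraries lay below the 45, 61 and 48 of the controls without overlap, the only such case among the 17 shared member regions. Over all 37284 shared regions, 8.79% had all silenced heights below all control heights and 0.161% above. The ranks did overlap, at the top 56.0% to 78.1% in silenced and 54.6% to 70.6% in control lists, and the score difference was -0.13 (-0.85 to 0.59, limma). It was -0.34 when regions were ranked by p-value, -0.27 by height (unadjusted p 0.111 and 0.0634, adjusted 0.974 and 0.971, limma) and -0.40 at an FDR of at most 1e-05. The fold enrichments there were 5.50 to 7.79. Another region called in all 6 libraries, 2974327 to 2975019, had heights of 9 to 22, and 5 further regions were called in 5 libraries.

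The VGLL genes divided in the same way, with VGLL4 strong and VGLL3 weak. VGLL2 (chromosome 6, 117265558 to 117273630) has the shortest span of the 7. Its start lay under the region 117265024 to 117266162, which also covers the start of the lncRNA LOC105377964 at 117265074. Silenced replicate 3 had no peak in that region. Heights were 14 and 11 in the other silenced libraries and 10, 25 and 12 in the controls. The called values overlapped. The region inside the gene, 117270191 to 117270787, had 11, 19 and 5 in silenced and 14, 11 and 13 in control libraries, with silenced replicate 3 lowest and silenced replicate 2 highest. Its score differed by 0.18 (-0.69 to 1.05, limma).

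VGLL3 (chromosome 3, 86937973 to 86991149) was near the limit of detection. The region over its start, 86990952 to 86991513, had 2 and 5 in the first pair of silenced libraries and 5, 5 and 8 in the controls, which met at 5. Silenced replicate 3 had no peak in the whole window, which allows a share of up to 2.47 per 100000 peaks of its list at a limit of 3 peaks, or 3.04 by the exact binomial 95% interval. The other libraries had 1 to 5 peaks. No region of VGLL3 was called in all 6 libraries, so none entered the limma comparison.

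VGLL4 (chromosome 3, 11556067 to 11721815) has 5 starts in the table, and they differed from one another. The start at 11643915 lay under 11643279 to 11644295, with heights of 13, 18 and 13 in silenced and 20, 18 and 19 in control libraries, so that silenced replicate 2 equalled control replicate 2. Its score differed by 0.01 (-0.63 to 0.64, limma). The start at 11720539 lay under 11720335 to 11720881, with 29, 26 and 8 in silenced and 26, 24 and 15 in control libraries. Silenced replicate 3 was lowest and the groups overlapped, and the score difference of 0.49 (-0.36 to 1.34) had the smallest p of the windows among higher scores (0.244, limma, unadjusted). It ran from 0.22 without control replicate 3 to 0.74 without control replicate 1, and was 0.07 when regions were ranked by height. Next to it, 11718432 to 11720068 had 25, 28 and 12 in silenced and 31, 47 and 26 in control libraries, with the groups overlapping and a score difference of -0.20 (-0.84 to 0.43, limma). At the other 3 starts, within 1 kb, no library had a peak at 11568798, silenced replicate 3 had one of height 3 at 11582356, and 4 libraries had one at 11604581. The tallest region of VGLL4 was at none of its starts. It was 11600395 to 11601327, 3.72 kb from the GC-poor start at 11604581, with heights of 84, 96 and 50 in silenced and 75, 87 and 80 in control libraries. Silenced replicate 2 was highest and silenced replicate 3 lowest, and the score difference was 0.10 (-0.33 to 0.52, limma). The plot of heights sets the regions side by side.

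**Figure D2:**
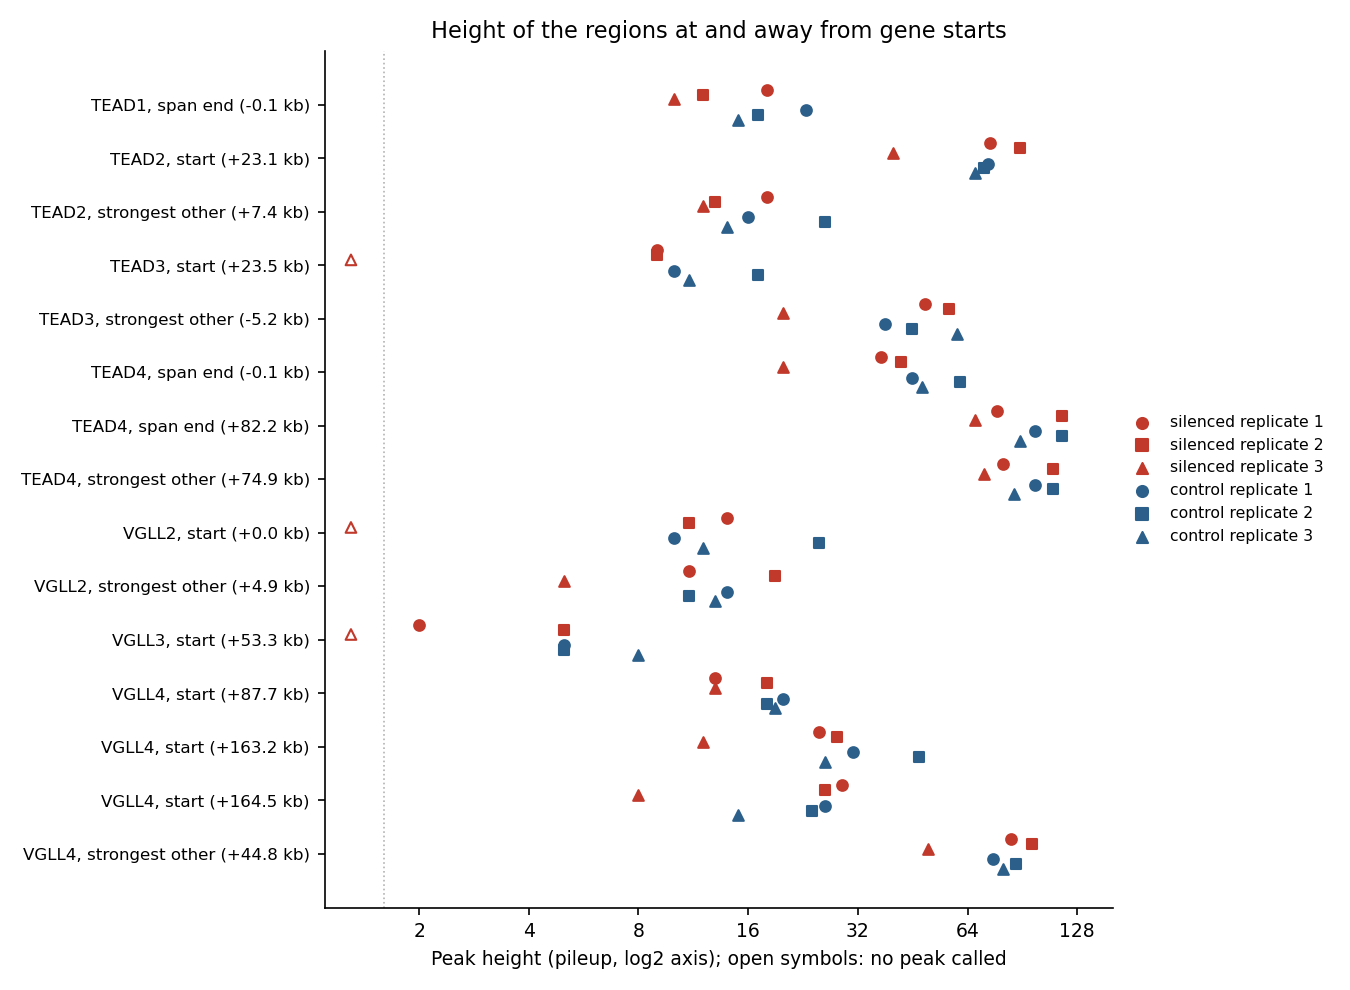
Peak height (pileup, log2 axis) in each library for the regions at a start or span end and the strongest other region of each gene, called in 5 or 6 libraries. Red is silenced and blue control, the symbol gives the replicate, open symbols mark no peak, and the number in brackets is the distance in kb of the region's middle from the low-coordinate end of the span. The regions of TEAD4 at +74.9 and +82.2 kb reach 110 and 116, and those of VGLL3 stay at or under 8.

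Between groups, the number of members with a peak within 1 kb of a start was first compared. It was 7, 7 and 5 in the silenced libraries and 7 in each control, a difference of -0.67 (exact permutation test, two-sided, p = 1; the smallest p that 3 libraries against 3 allow is 0.1). TEAD1, TEAD2, TEAD3, TEAD4 and VGLL4 had such a peak in all 6 libraries, and 62.6% of the 15842 protein-coding genes with a start in the table had one. The members were not scored quite like those genes. TEAD1 and TEAD4 were scored at either span end, and the shared TEAD2 peak lay over the start of DKKL1. VGLL2 and VGLL3 lacked a start peak only in silenced replicate 3, the library with the lowest background coverage, and without that library the difference was 0. Whether coverage had a part in this was not tested. At a false discovery rate (FDR) of at most 1e-05, a stricter limit, the counts were 5, 4 and 4 in silenced and 6, 6 and 6 in control libraries, which did not overlap (exact permutation p = 0.1). The genes behind that count were not the same in each library. TEAD3 passed in control replicates 1 and 2, VGLL2 in silenced replicate 1 and all controls, and VGLL3 in control replicate 3. Over all 15842 genes, 9573, 9836 and 8024 passed that limit in silenced and 9751, 9853 and 9754 in control libraries.

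The share of each list that fell in the windows was compared next, because the lists differ in length. Summed over the 7 windows it was 36.4, 42.3 and 36.2 peaks per 100000 in silenced and 42.1, 59.1 and 39.8 in control libraries, with control replicate 2 standing apart and silenced replicate 2 within the control values. The means were 38.3 ± 3.44 and 47.0 ± 10.5 (SD, n = 3 each), a difference of -8.73 that did not exceed the spread (exact permutation p = 0.3). Without control replicate 2, whose list is the shortest, the difference was -2.68.

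VGLL2 was the only window whose shares did not overlap when all deposited peaks were counted. They were 1.85, 1.79 and 1.65 per 100000 in silenced and 2.93, 3.28 and 2.41 in control libraries, with means of 1.76 ± 0.104 and 2.87 ± 0.437 (exact permutation p = 0.1, and 1 after adjustment over all 19447 protein-coding windows with a peak). Of those windows, 3.53% had all silenced shares below all control shares and 2.95% above, and a single member of 7 is not read as a result about the family. The groups overlapped at VGLL2 under 6 other settings (exact permutation p = 0.3 for an FDR under 0.05, for lists of equal size and for the span alone, 0.4 for a height of at least 4 and for 50 kb on either side, and 0.7 for an FDR of at most 1e-05). The share rests on 3, 3 and 2 peaks in silenced and 5, 3 and 4 in control libraries, and the exact binomial 95% intervals of single libraries, which cover counting error only, ran from 0.20 to 5.95 in silenced replicate 3 and from 0.68 to 9.60 in control replicate 2.

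The other windows overlapped between groups. TEAD4 had 8.05 ± 1.63 per 100000 in silenced and 11.6 ± 5.20 in control libraries (exact permutation p = 0.4), TEAD3 3.32 ± 0.363 and 4.89 ± 3.39 (p = 0.8), and in both control replicate 2 was the highest. Without control replicate 2 the TEAD4 difference of -3.52 became -0.55 and without control replicate 3 it became -5.39. TEAD1 had 7.43 ± 1.83 and 8.33 ± 1.59 (exact permutation p = 0.6), TEAD2 3.32 ± 0.245 and 3.45 ± 1.03 (p = 0.8). VGLL3 had 1.62 ± 1.55 and 2.15 ± 0.945 (exact permutation p = 0.7) and VGLL4 12.8 ± 0.778 and 13.8 ± 3.28 (p = 1). Counting only peaks of a height of at least 4, VGLL4 had 18.3, 18.4 and 18.9 per 100000 in silenced and 15.2, 18.0 and 16.3 in control libraries, higher without overlap (exact permutation p = 0.1), as did 5.70% of 18768 windows with such a peak. With all deposited peaks, each adjusted p over all windows was 1.

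**Figure D3:**
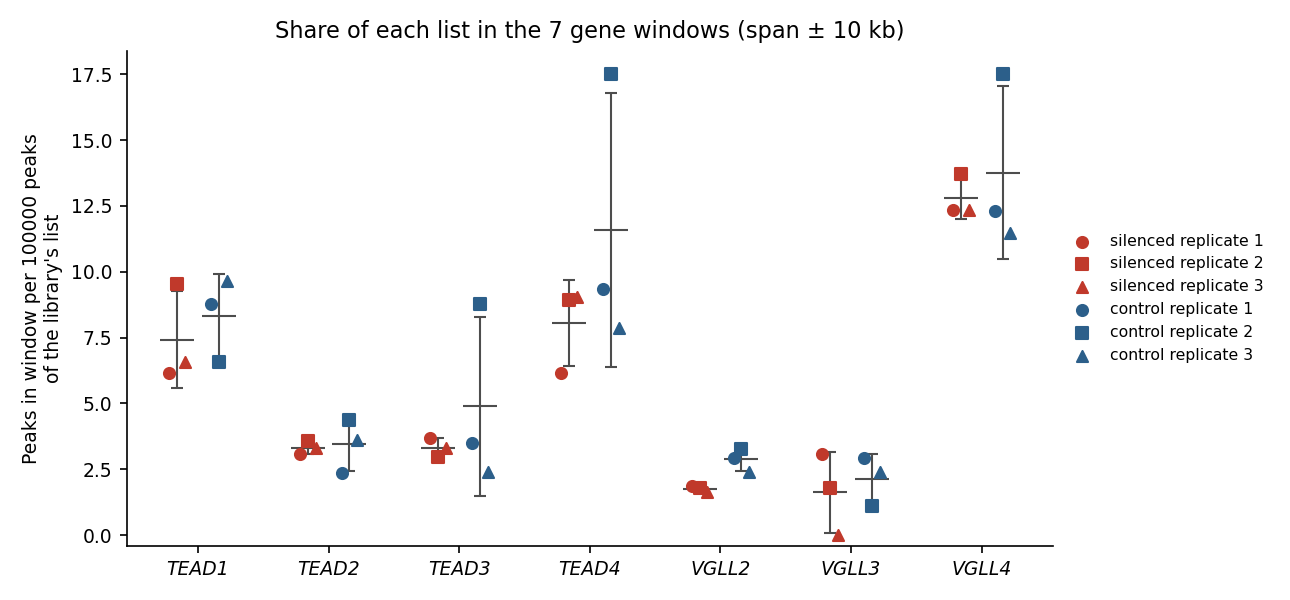
Peaks in each gene window per 100000 peaks of the library's list. Symbols are the 3 replicates of each group (red silenced, blue control), and the bars are the mean and SD. VGLL2 is the window without overlap, and control replicate 2 is the highest control at TEAD2, TEAD3, TEAD4, VGLL2 and VGLL4.

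In the windows, 0 regions were called in every silenced and no control library, and 0 in every control and no silenced library. Over the genome these made up 0.130% and 0.200% of regions. Of the 12 member regions called in 5 libraries, 8 (66.7%) lacked only silenced replicate 3, against 40.6% of the 11231 such regions of the genome. Of these 8, 1 each lay at the starts of TEAD3, VGLL2 and VGLL3. The rest lay at no start, with 2 in the TEAD1 window, 2 in that of TEAD4 and 1 in that of VGLL4.

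Rank scores of the 17 member regions called in all 6 libraries did not separate the groups. With limma and Benjamini-Hochberg adjustment over all 37284 shared regions, 0 of 17 passed an adjusted p of 0.05, as 0% of all regions did, and 0 of 17 had an unadjusted p under 0.05, against 4.68% of all regions. The scores were higher in silenced libraries at 9 and lower at 8, with a median difference of 0.01, beside 0.01 over all regions. The smallest adjusted p among them was 0.965. Every interval of the 17 included 0, and differences as large as -1.54 or 1.34 lay within the widest of them. Without silenced replicate 3, 25 regions could be compared and 2 had an unadjusted p under 0.05, with 0 after adjustment. The share of all regions under that p without this library was not computed, so the 2 are not read as a result.

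**Figure D4:**
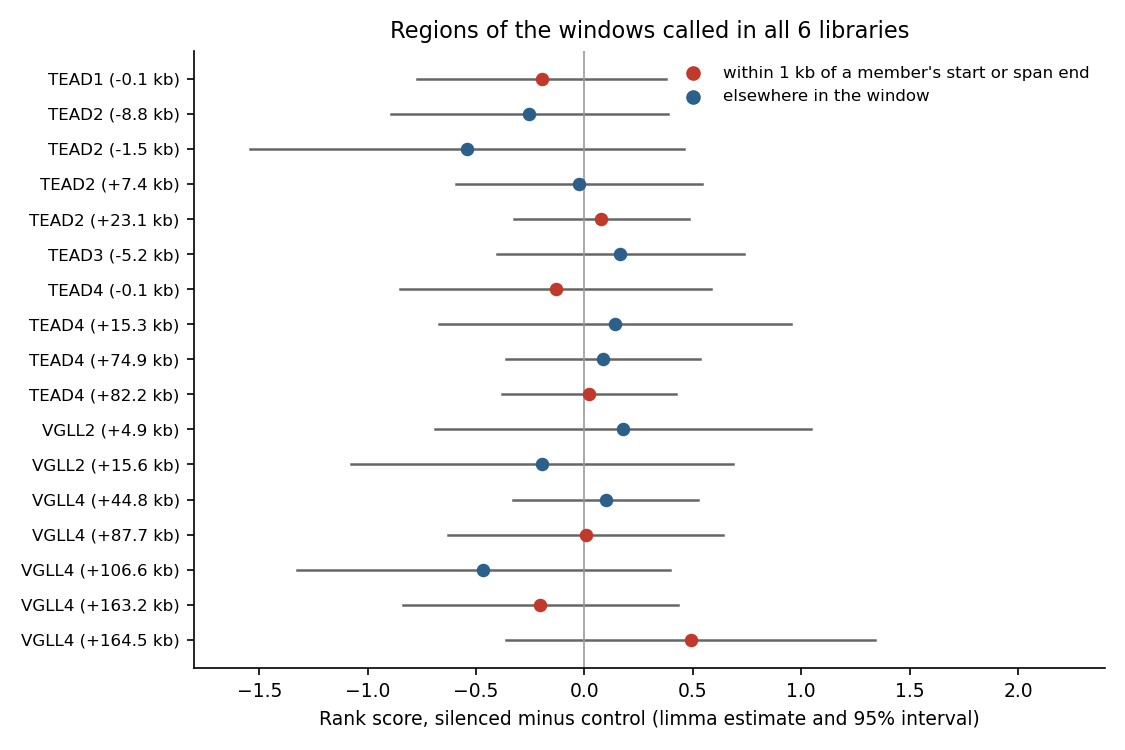
Difference in rank score, silenced minus control, for the 17 regions called in all 6 libraries, with the limma estimate (point) and its 95% interval (line). The x axis is in units of the normal score, and the label gives the gene and the distance in kb from the low-coordinate end of its span. All intervals include 0, with estimates from -0.54 (TEAD2) to 0.49 (VGLL4).

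The upstream genes of the pathway were described from a list of 17 Hippo genes. Of these, 15 had a start peak in all 6 libraries, 1 had one in 1 library (FRMD6) and 1 in none (STK3). Over the 15842 protein-coding genes with a start in the promoter table, 62.6% had one in all 6 and 17.2% in none. Any Hippo gene without a start in that table was scored at either span end, so the shares may not be quite alike. The 16 shared regions at the starts of the Hippo genes were higher in silenced libraries at 9 and lower at 7, with 0 past an adjusted p of 0.05 and 0 at an unadjusted p under 0.05 (limma), and a median score difference of 0.02. The differences ran from -0.66 at a region of YAP1, the co-activator that TEADs recruit, to 0.41 at MOB1B, an adaptor of the LATS kinases. YAP1 had a second shared region with 0.10, and WWTR1, which encodes TAZ, had 0.12. The kinases LATS1 and LATS2 had -0.41 and -0.13.

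For the TEAD genes with a start or end region in all 6 libraries, the gene whose start region had the most similar scores over the 6 libraries was looked up among 9866 to 9868 protein-coding genes. The likeness was the root mean square difference of the scores. It was TTLL3 for TEAD1 (0.143) and ITGB3BP for the TEAD2 region at DKKL1 (0.0634). For TEAD4 it was MX1 at the low-coordinate end (0.158) and KLHL20 at the high one (0.0527). Many genes lay nearly as close, with 163, 26, 208 and 8 genes within double those distances, so these names describe 6 values only.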

How the data were processed

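Per the submitters' processing notes, the reads went through Trimmomatic 0.36, Bowtie2 2.2.6, Picard 2.8.2, MACS2 2.1.1 and bedtools 2.25.0 on GRCh38. Their roles, parameters, any transposase shift and any removal of duplicates or mitochondrial reads are not given in the sources used here. The authors deposited 1 peak list per library. Per the file headers, each peak has a fold enrichment (a ratio), a p-value with an FDR, and a pileup signal (the height). These are the authors' values for single peaks. They served for description, ranking and filtering inside 1 list. The deposited p-values end near 0.01.

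Members, lists and tests were chosen with earlier results of these data known. Peaks on the chromosomes were counted in spans ± 10 kb, expressed per 100000 peaks, and compared by two-sided exact permutation tests. The design adjusted these over the 7 genes. Here they were adjusted over all 19447 protein-coding windows with a peak instead. Regions were merged over all lists at 1 bp of overlap. In those called in all 6, the fold enrichment of each list's strongest peak was ranked, turned into normal scores and tested with limma 3.58.1 (R 4.3.3, trended prior, Benjamini-Hochberg over all such regions). The procedure was also run on simulated scores with independent noise, and no power to detect shifts in these data is claimed from that. A start was a start of the RefSeq promoter table, or, for a gene without one such as TEAD1 and TEAD4, either span end. Background coverage was (height + 1) / fold enrichment - 1. Named were all members, their start regions, the strongest other region in all 6 libraries, one-group regions, the smallest limma p in each direction, and the gene most alike. The titles number libraries 1 to 3 in each group, but deviations of same-numbered libraries correlated at -0.00196, 0.00238 and -0.00829 over regions, so the numbers were not taken as pairs. Alternatives were FDR, height and list-size limits, window widths, other ranks, midpoints, a replicate block and each library left out. Exons, introns and VGLL1 were not analysed here.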

Additional observations from a re-analysis of the deposited data

How the results depend on the processing

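No alternative moved a member region past the adjusted limma threshold. The exact permutation tests of shares and start counts could not pass 0.05 under any setting, as their smallest p is 0.1, so they do not bear on this. Limma called 0 member regions in all 13 alternatives (10 to 25 regions tested, with 0 to 2 at an unadjusted p under 0.05). The Hippo list also gave 0 after adjustment, with 0 or 1 region at an unadjusted p under 0.05 in each alternative. The shares of all regions under that p were not computed for the alternatives. The summed window share stayed lower in silenced libraries, from -1.41 (height of at least 4) to -12.3 per 100000. With libraries paired by number in a replicate block, its exact sign-flip p was 0.25, the smallest possible, and the block changed no call.
Single windows changed sign with the peaks used: VGLL4 2.23 and TEAD1 0.56 (FDR of at most 1e-05), VGLL4 1.16 (FDR under 0.05), VGLL4 2.06 (no overlap) and TEAD2 0.83 (height of at least 4), VGLL4 0.73 (equal list sizes) and TEAD2 0.88 (50 kb). Rank scores near 0 did too: VGLL4 11643279 at -0.0400 (FDR of at most 1e-05), -0.0208 (ranked by p-value) and -0.0350 (by height), TEAD4 3041302 at -0.0307 and -0.0135, TEAD2 49347734 at 0.0104 (by p-value) and 0.000089 (by height), and VGLL2 117270191 at -0.0155 (by height). The cause was not tested.
With 1 library left out, the difference in members with a start peak ran from -1 to 0, regions in control libraries only from 0 to 4 and in silenced only from 0 to 3. The 4 were of 153 regions, without control replicate 2, and the 3 of 143, without silenced replicate 3. A rule over fewer libraries is easier to meet, and the genome share under it was not computed, so these counts are not read as a result. Window shares ran from -1.96 to -0.25 (TEAD1), -5.39 to -0.55 (TEAD4), -0.68 to 0.34 (TEAD2), -2.81 to 0.36 (TEAD3), -1.34 to -0.91 (VGLL2), -1.25 to 0.29 (VGLL3) and -2.11 to 0.92 (VGLL4). Rank scores ran from -0.292 to 0.00965 (TEAD1 12673958), -0.20 to 0.17 (TEAD2 49347734), -0.281 to 0.0148 (TEAD4 2958293), -0.10 to 0.24 (TEAD4 3034043), -0.0631 to 0.116 (TEAD4 3041302), -0.13 to 0.46 (VGLL2 117270191), -0.0201 to 0.217 (VGLL4 11600395), -0.23 to 0.15 (VGLL4 11643279), -1.09 to -0.15 (TEAD2 49338818), 0.0032 to 0.12 (TEAD2 49363216), 0.018 to 0.41 (TEAD3 35467943), -0.37 to -0.027 (VGLL4 11718432) and 0.22 to 0.74 (VGLL4 11720335). Read depth is unknown, so weak peaks such as those of VGLL3 are limited by it to an unknown degree.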
